A study of Homo sapiens with 12 samples.

Results

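H3K9ac was described at CDK6 and 9 other genes that control the passage of a cell from G1 into DNA replication: CDK4, CCND1, CCND2, CCND3, CDKN2A, CDKN2B, CDKN2C, CDKN1B and RB1. A region of the deposited table counted as belonging to a gene when it overlapped the RefSeq gene body with 5 kb added on each side, which gave 80 of 47648 regions. CDK6 held 40 of them, CCND3 12, CDKN2C 9, CCND2 and RB1 6 each, CDK4 and CCND1 3 each and CDKN1B 1, and CDKN2A and CDKN2B held 0. CDK6 was chosen by the measured H3K9ac change of 1 region inside it, which was lower after treatment, so the treatment differences given here describe these libraries and support nothing on their own. MOLM-13, a human acute myeloid leukaemia line with a KMT2A-MLLT3 fusion and a FLT3 internal tandem duplication, was compared in 2 groups of 3 H3K9ac libraries each. One group had received the solvent DMSO, and the other WM-1119, a small molecule inhibitor of the lysine acetyltransferase KAT6A, at 4 µM for 4 days. The labels give no duration for DMSO. The values are reads in each region scaled to a total of 1000000 per library (CPM).

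H3K9ac, acetylation of lysine 9 on histone H3, marks active promoters and enhancers. In G1 the kinases CDK4 and CDK6 bind D-type cyclins (the products of CCND1, CCND2 and CCND3) and phosphorylate the retinoblastoma protein, the product of RB1, which then releases E2F transcription factors. The INK4 inhibitors encoded by CDKN2A, CDKN2B and CDKN2C bind CDK4 and CDK6, while p27, encoded by CDKN1B, binds cyclin and kinase complexes. CDK6 is known as a dependency of leukaemias with KMT2A fusions.

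Libraries differed in depth and in background. DMSO replicates 1, 2 and 3 had 719329, 1298443 and 7481097 reads inside the listed regions, and the WM-1119 libraries had 4542322 to 12705349. DMSO replicates 1 and 2 stood apart: regions below the median strength took 8.95% and 7.19% of their CPM, and 2.19% to 3.35% in the other 4 libraries. Treatment changes that move by over 1.5 times without these 2 libraries are given both ways. Without them DMSO is represented by replicate 3 alone, which is assumed to vary like the WM-1119 libraries. As a check of the label, all 11 myeloid markers had a region at a start, with means of 245 CPM at SPI1 and 391 CPM at CEBPA but 1.46 CPM at MPO and 2.66 CPM at ITGAM, and 0 of 4 erythroid markers had one. Regions also stood at 3 of 5 T cell markers, 3 of 4 B cell markers and 3 of 4 epithelial and stromal markers, with CD4 at 34.0 CPM and CD79A at 14.7 CPM above MPO and ITGAM. In a bulk culture, fewer cells with the mark and less mark per cell cannot be told apart.

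RefSeq promoter windows of GRCh38.p14, running from 250 bases before a start to 50 after it, were listed for 8 of the 10 genes, 14 windows in all. The 6 printed here are the outer start of CDK6, the start of its partner CDK4, a start under each of the wide CDKN1B and CDKN2C regions, and a start of each INK4 gene without any region. Capitals mark GC boxes (GGGCGG, either strand) in the CDK6, CDKN2C, CDKN2A and CDKN2B windows, E-boxes (CACGTG, its own reverse complement) in those of CDK6 and CDK4, and CCAAT boxes (CCAAT, either strand) in that of CDKN1B.
CDK6 (chr7:92836524-92836823, minus strand): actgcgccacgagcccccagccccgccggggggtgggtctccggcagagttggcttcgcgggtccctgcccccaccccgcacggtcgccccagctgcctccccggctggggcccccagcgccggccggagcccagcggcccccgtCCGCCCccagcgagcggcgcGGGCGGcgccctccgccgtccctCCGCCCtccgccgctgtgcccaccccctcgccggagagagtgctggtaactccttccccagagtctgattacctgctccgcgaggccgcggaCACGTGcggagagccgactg
CDK4 (chr12:57752261-57752560, minus strand): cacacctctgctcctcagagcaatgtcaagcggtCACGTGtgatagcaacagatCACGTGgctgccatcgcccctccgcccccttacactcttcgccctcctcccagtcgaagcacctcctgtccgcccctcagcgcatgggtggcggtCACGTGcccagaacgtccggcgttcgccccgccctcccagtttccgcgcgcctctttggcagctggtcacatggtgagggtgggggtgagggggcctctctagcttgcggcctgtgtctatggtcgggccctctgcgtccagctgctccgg
CDKN1B (chr12:12717118-12717417, plus strand): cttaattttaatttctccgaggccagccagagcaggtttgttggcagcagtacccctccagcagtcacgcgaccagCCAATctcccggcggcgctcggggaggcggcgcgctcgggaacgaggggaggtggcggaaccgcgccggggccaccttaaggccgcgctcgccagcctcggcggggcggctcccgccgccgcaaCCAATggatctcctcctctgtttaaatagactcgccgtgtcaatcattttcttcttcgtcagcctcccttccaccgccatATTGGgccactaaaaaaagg
CDKN2C (chr1:50968456-50968755, plus strand): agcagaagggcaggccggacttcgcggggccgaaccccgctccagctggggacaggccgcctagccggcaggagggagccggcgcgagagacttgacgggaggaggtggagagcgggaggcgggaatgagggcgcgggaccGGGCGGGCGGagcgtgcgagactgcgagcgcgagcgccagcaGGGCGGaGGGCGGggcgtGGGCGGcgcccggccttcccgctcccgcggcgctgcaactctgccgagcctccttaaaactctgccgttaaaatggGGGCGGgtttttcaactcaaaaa
CDKN2A (chr9:21974808-21975107, minus strand): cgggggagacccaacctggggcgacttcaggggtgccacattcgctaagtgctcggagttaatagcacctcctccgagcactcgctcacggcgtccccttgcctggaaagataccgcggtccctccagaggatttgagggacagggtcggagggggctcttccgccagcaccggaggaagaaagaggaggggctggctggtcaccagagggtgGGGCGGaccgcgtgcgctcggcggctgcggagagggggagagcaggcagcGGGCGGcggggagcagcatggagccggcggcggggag
CDKN2B (chr9:22009256-22009555, minus strand): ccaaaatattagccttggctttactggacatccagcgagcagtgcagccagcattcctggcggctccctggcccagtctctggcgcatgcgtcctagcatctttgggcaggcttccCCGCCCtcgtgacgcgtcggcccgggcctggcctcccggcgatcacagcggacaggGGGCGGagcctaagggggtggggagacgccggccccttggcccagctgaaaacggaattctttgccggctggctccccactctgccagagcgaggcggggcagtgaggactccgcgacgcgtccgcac

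The CDK6 window held 37 CpG dinucleotides and 78.0% G and C, against a median of 21 CpG and 62.3% over 22199 windows of coding genes. E-boxes stood in 4 of the 14 windows, and 8.3% of all windows held at least 1. The CDK4 window held 3 and the printed CDK6 window 1, and the others were in CDKN2C windows not printed. GC boxes stood in 9 of the 14 windows, among them those of CDK4 (3) and CDKN1B (1), where they are not in capitals. The CDKN1B window held 3 CCAAT boxes (34.7% of all windows held 1 or more), and the CDKN2C window printed held 6 GC boxes (56.3%), of which a pair overlaps. The E2F motifs searched, TTTCGCGC and TTTGGCGC on either strand, were in 0 of the 14 windows and in 0.7% and 0.8% of all windows. CCND1 and CCND2 had no window, and the only RB1 window lay at an inner start without a region. The starts of these genes that carried a region were therefore not searched.

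Around the CDK6 start, H3K9ac formed 1 region of 12015 bp on chromosome 7, from 92827988 to 92840002, which covered both RefSeq starts of the gene (92836573 and 92833959). It was wider than nearly all promoter regions of coding genes, at the 99.9th percentile, and its CPM per kb was at the 90.4th. It held 377, 502 and 645 CPM in DMSO replicates 1, 2 and 3 and 580, 522 and 548 CPM in the 3 WM-1119 libraries. The lowest and the highest library were both DMSO libraries, so the groups overlapped and the WM-1119 libraries lay within the DMSO range. The log2 change, WM-1119 minus DMSO on the log2(CPM + 1) scale used throughout, was 0.15 ± 0.14 (SE), with a 95% interval from -0.13 to 0.42. It was -0.23 ± 0.10 (SE) without DMSO replicates 1 and 2 and -0.07 with quantile normalization.

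The other 39 CDK6 regions lay inside the gene, were 147 to 2056 bp wide and had means of 1.16 to 24.1 CPM. Whether they lie in exons or introns was not analysed here. The strongest, at 92633641 to 92635696 and 201.9 kb into the gene from its start, is the one that led to the choice of CDK6. It held 48.7, 30.0 and 24.5 CPM in the DMSO libraries, from 35, 39 and 183 reads. In the WM-1119 libraries it held 17.6, 10.4 and 13.3 CPM, with 80 and 169 reads in replicates 1 and 3. All WM-1119 values were below all DMSO values, and the log2 change was -1.23 ± 0.28 (SE). In limma's fit over the whole table its Benjamini-Hochberg adjusted p was 0.0498, just inside the 0.05 used, and it was 1 of 27 regions that passed among 44763 tested (0.0603%). The nearest member region outside, at CDKN2C, had an adjusted p of 0.251 in limma.

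That region stood above the background of chromosome 7 in each library. Background here is the 10th percentile of CPM per kb over the regions wider than 500 bp and no wider than 1200 bp. Most such regions exceed it by definition, and the CDK6 region is wider, so nothing is read from its standing above. The background was 8.09, 7.16 and 3.18 CPM per kb in DMSO replicates 1, 2 and 3 and 4.4, 4.13 and 3.48 for WM-1119. The region held 23.7, 14.6 and 11.9 and then 8.57, 5.06 and 6.47 CPM per kb. After this background was subtracted the log2 change was -2.14 (limma adjusted p = 0.00462), a setting that takes the low WM-1119 values towards 0. Without DMSO replicates 1 and 2 it was -0.81 ± 0.29 (SE) and did not pass (limma adjusted p = 0.797), and over all 17 alternatives the adjusted p ran from 0.000638 to 0.865. The region passed in 4 of those 17. The smallest changes were -0.46 with median centring (limma adjusted p = 0.568) and -0.64 in edgeR on 5 libraries (adjusted p = 0.865).

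Next in strength was a region 57.5 kb into CDK6, at 92778212 to 92779998. It held 19.5, 20.02 and 19.3 CPM in the DMSO libraries and 15.6, 10.7 and 11.4 in the WM-1119 libraries. With no background subtracted, the 3 DMSO libraries lay within 1 CPM of each other and the groups did not overlap. The DMSO values came from 14, 26 and 144 reads, and 1 read was worth 1.39 CPM in DMSO replicate 1. The closeness of the DMSO values is thus finer than those reads can resolve. Per kb the DMSO libraries held 10.9, 11.2 and 10.8 CPM, over chromosome 7 backgrounds of 8.09, 7.16 and 3.18. This region is also wider than those that set the background, so nothing is read from its standing above it. The log2 change of the region was -0.62 ± 0.31 (SE), and -0.59 ± 0.28 (SE) without DMSO replicates 1 and 2. With background subtracted it was -0.74 ± 0.57 (SE). With quantile normalization it was -0.18, and median centring, which raised all log2 changes by 0.77, turned it to 0.15.

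The 2 other CDK6 internal regions averaging at least 10 CPM showed another order of libraries. At 92780868 to 92782133 the values were 22.2, 13.9 and 7.35 CPM in the DMSO libraries and 9.91, 7.003 and 4.57 in the WM-1119 libraries. At 92809398 to 92810850 they were 20.9, 15.4 and 8.15 CPM and 13.9, 7.30 and 8.26 CPM. In both, DMSO replicate 3 lay inside the WM-1119 range and only DMSO replicates 1 and 2 were above it. Their log2 changes of -0.86 and -0.51 became -0.09 and 0.19 without those 2 libraries.

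**Figure D1:**
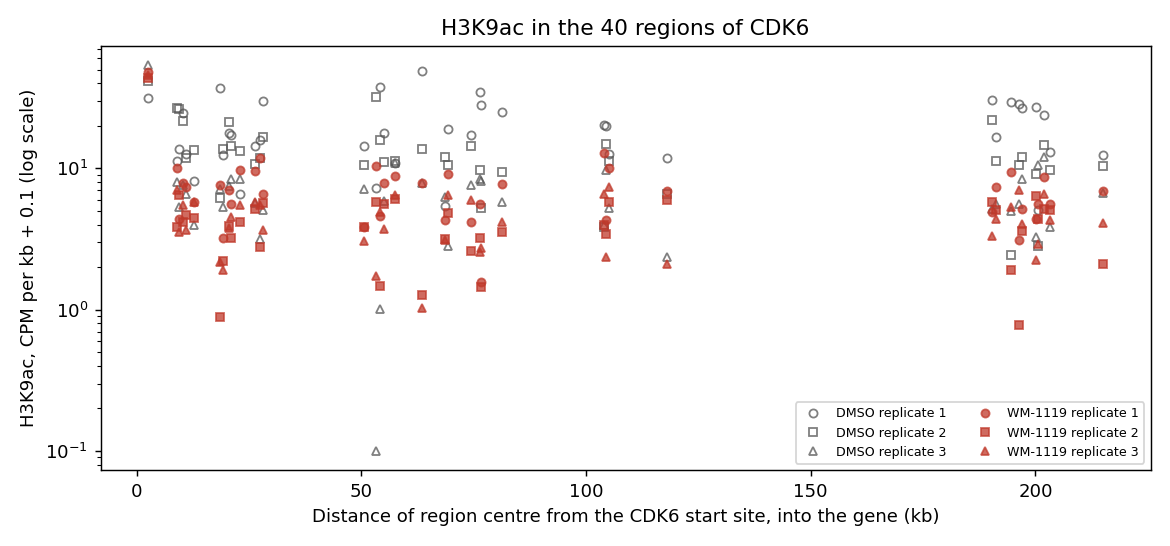
H3K9ac of each CDK6 region, as CPM per kb plus 0.1 on a log axis, against the distance of its centre from the start site in kb, with open grey symbols for the 3 DMSO libraries and filled red symbols for the 3 WM-1119 libraries. The promoter region, at 31.4 to 53.7 CPM per kb, stands at the left, and in the internal regions DMSO replicates 1 and 2 are mostly the highest.

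All 39 internal CDK6 regions were lower in WM-1119 by the fitted log2 change, with a median of -0.87 and a range from -1.50 to -0.04. Of all internal regions tested, 93.9% were lower too, with a median of -0.65. The groups did not overlap in 13 of the 39, all lower in WM-1119, where this held for 16.6% of internal regions over all genes. The contrast chose the gene, so nothing is read from this count. DMSO replicate 1 or 2 was the highest library in 38 of the 39 regions, and in 94.6% of all internal regions. Depth was low there: DMSO replicate 1 had a median of 4 reads per CDK6 internal region, from 1 to 35. With DMSO replicate 3 as the sole control, 29 of the 39 had a mean high enough to be fitted, 19 of those were lower and the median was -0.20, beside 0.08 over all internal regions.

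Read against DMSO replicate 3 directly, all 3 WM-1119 libraries were below it in 14 of the 39 CDK6 internal regions and above it in 6. Over internal regions of all genes these shares were 20.1% below and 31.4% above. In the 20 tested internal regions of the other members the counts were 4 below and 11 above. These 20 include regions near the starts of LPAR6 and TAF8, a kind left out of the shares over all genes. The region that led to the choice of CDK6 is 1 of the 14, so nothing is read from these counts either. Another of the 14 lay at 92817222 to 92817786, with 2.94 CPM (22 reads) in DMSO replicate 3 and 1.76, 1.2 and 1.02 in the WM-1119 libraries.

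As a share of all CDK6 CPM, internal regions took 47.0%, 31.6% and 16.8% in DMSO replicates 1, 2 and 3 and 19.3%, 13.5% and 13.6% in WM-1119 replicates 1, 2 and 3. This share does not depend on how a library was scaled. The groups overlapped, because DMSO replicate 3 was below WM-1119 replicate 1. The 39 regions cover 18.5 kb and held 18.0, 12.5 and 7.02 CPM per kb in DMSO and 7.49, 4.38 and 4.66 in WM-1119. The log2 ratio of internal to promoter CPM differed by -1.27 between groups, and by -0.16 without DMSO replicates 1 and 2. Over 1003 coding genes with at least 10 CPM at the promoter and at least 5 internal regions the median difference was -0.92, with quartiles at -1.15 and -0.65, and 149 of them were at or below the value of CDK6. Without DMSO replicates 1 and 2 the median was 0.03, and 264 were at or below CDK6.

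**Figure D2:**
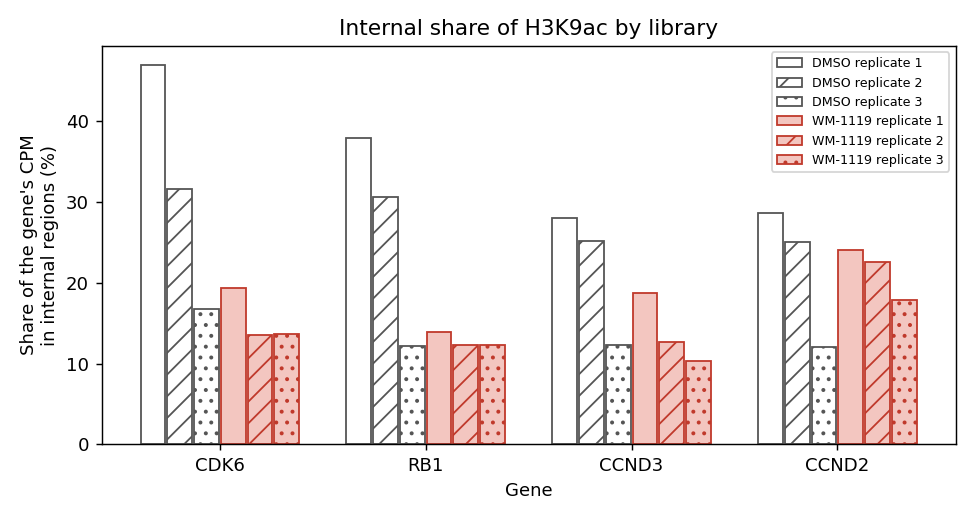
Share of a gene's H3K9ac CPM that lay in internal regions (y axis, %), for CDK6, RB1, CCND3 and CCND2, with 1 bar per library (open bars DMSO, red bars WM-1119, hatching by replicate). In CDK6 the share is 47.0% and 31.6% in DMSO replicates 1 and 2 and 13.5% to 19.3% in the other 4 libraries. The RB1 share includes the region at the LPAR6 start, which held 59.8 of 93.1 internal CPM in DMSO replicate 1. The CCND3 share includes a weak region near the TAF8 start.

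RB1, the gene of the retinoblastoma protein, had its strongest signal at its start, in a region of 3022 bp on chromosome 13 (48302852 to 48305873). It held 153, 169 and 216 CPM in the DMSO libraries and 248, 235 and 230 in the WM-1119 libraries. All WM-1119 libraries were above all DMSO libraries. RB1 was the sole one of 13 member regions at starts with that order, which 11.2% of all promoter regions and 3.76% of all tested regions had. The log2 change was 0.42 ± 0.15 (SE) and did not pass over the whole table (limma adjusted p = 0.329). It was 0.14 ± 0.12 (SE) without DMSO replicates 1 and 2.

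Inside RB1, a region at 48411175 to 48413130 coincided with the annotated start of LPAR6, a receptor gene nested in RB1. It held 59.8, 39.3 and 19.8 CPM in the DMSO libraries and 24.0, 21.1 and 20.8 in the WM-1119 libraries. DMSO replicate 3 was the lowest of the 6 libraries there, in contrast to the strongest CDK6 internal region. The log2 change of -0.69 ± 0.26 (SE) became 0.14 without DMSO replicates 1 and 2. Chromosome 13 had a background of 12.6 and 11.2 CPM per kb in these 2 libraries and 4.30 to 5.87 in the other 4. With the background of each chromosome subtracted the change at this RB1 region was -0.85 ± 0.37 (SE).

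CDKN1B, which encodes p27, lay wholly within 1 region of 14798 bp on chromosome 12 (12713858 to 12728655), which also reached the annotated starts of APOLD1 and GPR19. It held 627, 787 and 1096 CPM in the DMSO libraries and 994, 1019 and 1082 in the WM-1119 libraries. DMSO replicate 3 was the highest library and the other DMSO libraries the lowest. The log2 change was 0.34 ± 0.14 (SE), and -0.09 ± 0.09 (SE) without DMSO replicates 1 and 2.

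CDKN2C, which encodes the INK4 inhibitor p18, held the widest member region, 17833 bp on chromosome 1 from 50966286 to 50984118. That region runs past the end of the gene and covers the second and the third of its listed starts. It held 690, 856 and 1178 CPM in the DMSO libraries and 1146, 1211 and 1349 in the WM-1119 libraries. The groups overlapped through DMSO replicate 3, which was above WM-1119 replicate 1. The log2 change of 0.48 ± 0.13 (SE), with a 95% interval from 0.21 to 0.74, was the highest of the tested member regions and did not pass (limma adjusted p = 0.251). It passed with a replicate block (0.48), with background subtracted (0.39 ± 0.08, SE) and without DMSO replicate 3 (0.68). It was 0.06 ± 0.10 (SE) without DMSO replicates 1 and 2. The outer start of CDKN2C lay in another region, 50958672 to 50961105, shared with the start of FAF1, with means of 96.7 ± 24.7 CPM in the DMSO libraries and 124 ± 25.1 in the WM-1119 libraries (SD, n = 3 each). There the difference was 0.37 ± 0.18 on the log2 scale (SE), or 0.13 ± 0.19 (SE) without those 2 libraries.

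CDKN2A and CDKN2B, the genes of p16, p14ARF and p15, held no region of the table. The nearest regions on chromosome 9 ended at 21834250 and began at 22029740, which leaves 195.5 kb without one. The region on the far side, 22029740 to 22029998, lay within the non-coding CDKN2B-AS1 and had a mean of 1.40 CPM. Beyond the near side, the start region of MTAP, a purine salvage enzyme gene, held 19.5, 43.9 and 52.8 CPM in the DMSO libraries and 34.3, 43.1 and 40.8 in the WM-1119 libraries. Over all coding genes 62.7% had a region within 1 kb of a start. The windows of CDKN2A and CDKN2B printed above held 26 and 25 CpG, above the median of 21. The absence of a region says only that none was listed in the table.

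CDK4, the partner kinase of CDK6, had a start region at 57750790 to 57753230 on chromosome 12. It held 51.4, 72.4 and 68.4 CPM in the DMSO libraries and 54.2, 74.5 and 65.2 in the WM-1119 libraries. The groups covered much the same range, and the log2 change was 0.02 ± 0.19 (SE), with a 95% interval from -0.36 to 0.39, and -0.09 ± 0.18 (SE) without DMSO replicates 1 and 2. Its 2 other regions lay outside the gene, at the annotated starts of the neighbouring genes TSPAN31 and MARCHF9, with log2 changes of -0.16 and -0.05, or -0.01 and -0.16 without those DMSO libraries.

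Of the D-type cyclin genes CCND3 carried the most H3K9ac. Its outer start region, 42047877 to 42049110 on chromosome 6, held 43.1, 45.4 and 48.9 CPM in the DMSO libraries and 39.6, 45.1 and 49.3 in the WM-1119 libraries. A region of 6402 bp over its inner starts, 41936493 to 41942894, held 139, 149 and 160 CPM and then 147, 159 and 169 CPM. Groups overlapped in both, and the log2 changes were -0.04 ± 0.20 and 0.08 ± 0.15 (SE), or -0.13 ± 0.18 and -0.02 ± 0.13 (SE) without DMSO replicates 1 and 2. A region at the other end of the gene, 41934894 to 41936258, held 22.2, 21.6 and 11.6 CPM in the DMSO libraries and 11.01, 11.3 and 7.95 in the WM-1119 libraries. These groups did not overlap, though DMSO replicate 3 and WM-1119 replicate 2 were close, and the change of -0.77 was -0.20 without DMSO replicates 1 and 2.

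CCND2 had its strongest region at its start, 4273001 to 4275934 on chromosome 12, shared with the non-coding CCND2-AS1. It held 51.4, 67.8 and 76.1 CPM in the DMSO libraries and 49.3, 53.1 and 70.0 in the WM-1119 libraries, with overlapping groups and a log2 change of -0.17 ± 0.19 (SE), or -0.41 ± 0.19 (SE) without DMSO replicates 1 and 2. Inside the gene, a region at 4288824 to 4290143 held 22.2, 23.9 and 13.9 CPM and then 19.8, 22.8 and 19.0 CPM, a change of 0.07 ± 0.28 (SE), or 0.53 ± 0.24 (SE) without those 2 libraries. Among the strongest start regions per kb of each gene, that of CCND1, 69641818 to 69643568 on chromosome 11, was the weakest. It held 25.02, 16.2 and 17.2 CPM in the DMSO libraries and 20.5, 13.8 and 14.2 in the WM-1119 libraries. Its log2 change was -0.25 ± 0.30 (SE), or -0.11 ± 0.27 (SE) without those DMSO libraries. With quantile normalization the CCND1 change was 0.09. A weaker CCND1 start region, 69641328 to 69641613, averaged 2.66 CPM.

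Levels at starts were compared between genes per kb of region. Background was not subtracted here, and it differed between chromosomes. In DMSO replicate 1 it was 12.6 and 12.2 CPM per kb on those of RB1 and CCND3, and 7.48 to 8.09 on those of the other genes. Whether the order holds with background subtracted was not tested. RB1 stood first with 59.4 ± 10.9 CPM per kb in DMSO and 78.6 ± 3.11 in WM-1119 (SD, n = 3 each), followed by CDKN1B with 56.5 ± 16.1 and 69.7 ± 3.07. CDKN2C came next with 50.9 ± 13.9 and 69.3 ± 5.80, then CDK6 with 42.3 ± 11.2 and 45.8 ± 2.42 and CCND3 with 37.1 ± 2.38 and 36.2 ± 3.92. CDK4 held 26.3 ± 4.56 and 26.5 ± 4.18, CCND2 22.2 ± 4.27 and 19.6 ± 3.75, and CCND1 11.1 ± 2.76 and 9.24 ± 2.13. These are the strongest start regions per kb of 8 genes. CDKN2A and CDKN2B held none, and a weaker start region of CDKN2C, 50961230 to 50962026, averaged 10.5 CPM per kb.

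Neighbours in this order were compared over the 6 libraries with an exact two-sided sign-flip permutation test, adjusted over 7 pairs. CDKN2C was above CDK6, CCND3 above CDK4, CDK4 above CCND2 and CCND2 above CCND1 in 6 of 6 libraries, by 0.43, 0.49, 0.34 and 1.05 on the log2 scale. Each had an exact p of 0.03125, the smallest that 6 libraries allow, and an adjusted p of 0.0547. RB1 over CDKN1B, CDKN1B over CDKN2C and CDK6 over CCND3 held in 5 of 6 libraries, with differences of 0.13, 0.08 and 0.25 and adjusted exact p of 0.0729, 0.0938 and 0.0729. CDK6 was below CCND3 in DMSO replicate 1, at 31.4 and 34.9 CPM per kb. No pair passed after adjustment. With 6 libraries, a pair at the smallest p can pass only if enough other pairs reach it too, so nothing is read from this. The order was the same without any 1 library.

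**Figure D3:**
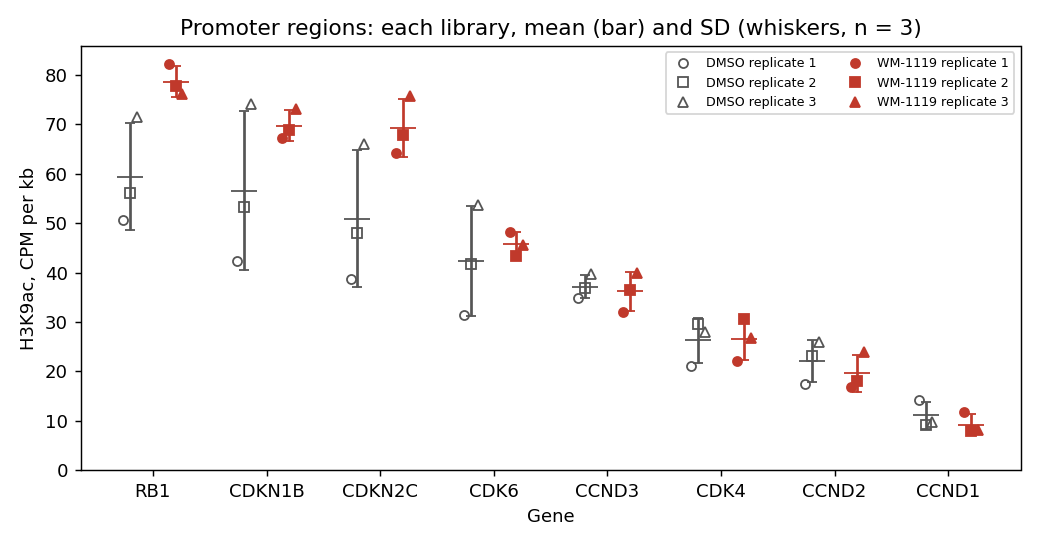
H3K9ac at the start region of each gene in CPM per kb (y axis), with 1 symbol per library, a bar for the mean and whiskers for the SD (n = 3), grey for DMSO and red for WM-1119. RB1, at 50.6 to 82.1 CPM per kb, is the sole gene whose red and grey symbols do not overlap.

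Across all members, 78 of the 80 regions were strong enough to be fitted (a mean of at least 1 CPM). 1 passed, 68 were lower and 10 higher, where 77.2% of all tested regions were lower, and the median log2 change was -0.65 beside -0.47 over all tested regions. Of the 13 member regions at starts 7 were higher, beside 58.1% of all promoter regions. Strong and weak regions differed in sign, as they did genome-wide. Those averaging 100 CPM or more had a median of 0.23 over the genome, and those with 1 to 5 CPM had one of -0.65. Without DMSO replicates 1 and 2 these medians were -0.02 and 0.13, and that of the members was -0.09 over 64 regions. The start regions of CDK6, CDKN1B, CDK4 and CCND3 at 41936493 then changed sign, to -0.23, -0.09, -0.09 and -0.02.

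**Figure D4:**
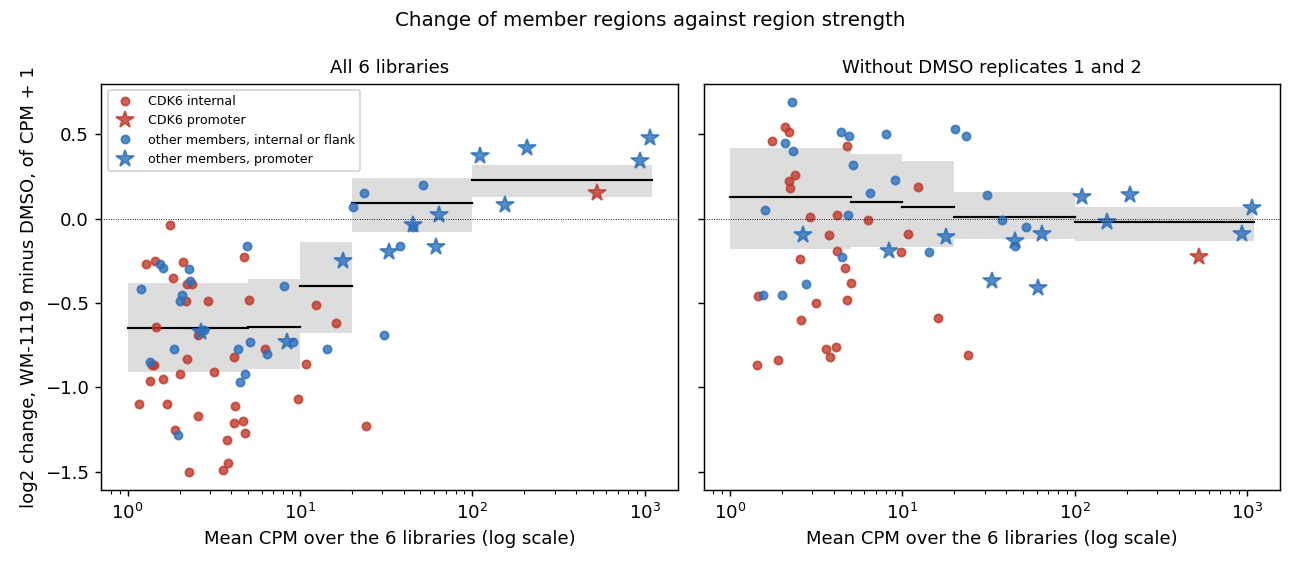
Log2 change of CPM + 1, WM-1119 minus DMSO (y axis), against mean CPM over the 6 libraries (log axis), with all libraries on the left and without DMSO replicates 1 and 2 on the right. Points are CDK6 (red) and the other members (blue), stars mark start regions, and black lines and grey bands give the median and quartiles of all tested regions by strength. On the left weak regions lie near -0.65 and strong ones near 0.23, and on the right the bands lie near 0, with the CDK6 region at 24.1 CPM at -0.81.

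The wider G1 to S network was read from a list of 27 coding genes, among them E2F factors, cyclins E1, E2 and A2, CDK2 and its inhibitors. All 27 had a region at a start, and 0 passed in limma (adjusted p from 0.344 to 0.93), while 2 were above and 1 below when p was not adjusted (threshold 0.05), and edgeR also called 0. Of all promoter regions 7.89% were above and 2.65% below at that unadjusted threshold. By sign 22 were higher and 5 lower, with a median log2 change of 0.19, which was 0.00 without DMSO replicates 1 and 2. Over all promoter regions 58.1% were higher and the median was 0.07. Strength matters here, since 26 of the 27 averaged at least 10 CPM. Promoter regions of 20 to 100 CPM had a median of 0.13, with 25.7% lower. Those of 100 CPM or more had one of 0.24, with 6.4% lower, so the list lay near its background. E2F5, a repressive E2F family member, held 95.9, 110 and 128 CPM in the DMSO libraries and 89.2, 80.3 and 79.5 in the WM-1119 libraries, a log2 change of -0.41 ± 0.17 (SE), -0.62 without DMSO replicates 1 and 2 and 0.36 with median centring. MNAT1, an assembly factor of the CDK-activating kinase, held 23.6, 15.4 and 25.1 CPM and then 33.2, 29.0 and 29.3 CPM, a change of 0.52 ± 0.25 (SE), which was 0.27 without DMSO replicates 1 and 2 and 0.31 without DMSO replicate 2 alone. Groups did not overlap in 6 of the 27, with E2F5 lower and MNAT1, E2F2, RBL1, RBL2 and CKS1B higher, beside 4.77% and 11.2% of all promoter regions. The changes of RBL1, RBL2 and CKS1B were 0.33, 0.25 and 0.32, and 0.11, 0.12 and 0.05 without DMSO replicates 1 and 2. CCNA2, the cyclin A2 gene, and E2F2, an activating E2F gene, changed by 0.36 ± 0.18 and 0.34 ± 0.17 (SE), and their values without DMSO replicates 1 and 2 were 0.01 and 0.22.

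The start regions whose values followed the CDK6 start region most closely over the 6 libraries were those of EIF3A, a translation factor gene, NOCT, UNK, COPE with DDX49, and SLC25A53, with Pearson r of 0.987 to 0.998 among 9912 candidates. For the strongest CDK6 internal region they were a FLT3 region at 28093627 to 28095339 on chromosome 13 (r = 0.993), a SDCCAG8 region (r = 0.992) and 3 regions in no annotated gene. In both searches over 100 candidates, 133 and 161, had an r above 0.95. These 6 points share depth and background, so the likeness is a description.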

How the data were processed

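ChIP-seq for H3K9ac was analysed in 3 DMSO and 3 WM-1119 libraries of MOLM-13, grouped by sample title. The 6 input samples were not analysed here. Per the submitters' processing notes the tools were MACS2, bedtools, SAMtools and Bowtie2 and the build hg38, with neither versions nor roles given. The deposited table, called TPM by the authors, holds CPM: each column sums to 1000000 over the regions, and 100% of its values worth at most 100 reads were whole to within 0.02 reads, whatever the width. 1 was added to each start, which assumes starts counted from 0. No label says that replicates were cultured separately, so each p reflects the spread between libraries, which may be technical.

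limma 3.58.1 in R 4.3.3 (with trend and robust options) was run on log2(CPM + 1) of the 44763 regions averaging at least 1 CPM, with Benjamini-Hochberg adjustment over all of them. The script was tested on simulated data, which held no difference in background between libraries. Among changed regions averaging at least 10 CPM there, 14% of 2-fold and 88% of 4-fold changes passed. A region that did not pass may therefore still have changed. edgeR 4.0.16 was run on the whole reads recovered for 5 libraries as an alternative. WM-1119 replicate 2 was left out of it: 1 read is worth 0.100038 CPM there, so near a round value that whole multiples may come from rounding, and its read total is less certain. Starts came from RefSeq (GRCh38.p14): a promoter region lay within 1 kb of a listed start, of the outer 5′ end where no listed start had a region (RB1), or of either end of a gene with no listed start (CCND1, CCND2), and the one with the most CPM per kb stood for the gene. Tables and figures used Python 3.11.15.

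The members, lists and tests were chosen with earlier results of these data known. All 10 members were named whatever their values, with every CDK6 region counted, internal regions of other members where groups did not overlap at a mean of at least 10 CPM, the 4 other G1 to S genes with the smallest p and the 5 regions most like each CDK6 region. The other members' internal regions of RB1 and CCND2 were named after their values were seen. So were the CDK6 region at 92817222, the weaker start regions of CDKN2C and CCND1, RBL1, RBL2 and CKS1B.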

Additional observations from a re-analysis of the deposited data

How the results depend on the processing

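The whole-table count of 27 calls was 19 to 23 with other pseudocounts or no filter, 2 among regions averaging at least 10 CPM, 1 with quantile normalization, 2 with median centring (both higher) and 76 with background subtracted (25 higher, 51 lower). It was 0 for limma without trend and robust (33 higher and 4903 lower when p under 0.05 was not adjusted), 0 without DMSO replicates 1 and 2 (1338 and 728) and 0 in edgeR (350 and 1773), and from 0 to 19600 with 1 library left out. Whether the replicate numbers pair the libraries is not settled. Same-numbered deviations correlated at 0.223, 0.053 and 0.328, and differently numbered ones at -0.274 to 0.055. DMSO replicate 2 correlated about equally with WM-1119 replicates 1 and 2 (0.055 and 0.053). With a replicate block 496 regions passed, and of the 17 named regions CDKN2C newly did, as it did with background subtracted. The CDK6 internal to promoter difference of -1.27 was -0.38 with quantile normalization, -2.30 with background subtracted and -0.16 without DMSO replicates 1 and 2. The median of all member regions, -0.65, was -0.05 among regions averaging at least 10 CPM, -0.10 with quantile normalization, 0.13 with median centring and -0.09 without DMSO replicates 1 and 2. The 0 calls among 27 other G1 to S genes became 8 without DMSO replicate 3, when 10 of the 17 named regions also newly passed, and stayed 0 in the other settings. Summing promoter regions per kb let 5 of 7 neighbouring pairs pass and put CDK4 before CCND3. With 1 library left out the smallest exact p is 0.0625, so no pair could pass. Ranking likeness by CPM kept 6 of the 10 regions, and Spearman's rho tied too many to rank. Where no value shows it, the cause of a change was not tested. DMSO replicate 1, at 1.39 CPM per read, sets the precision of weak regions.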
